A study of Rattus norvegicus with 6 samples.

Results

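A group of 7 transcripts of fibrosis and the extracellular matrix was followed in rat kidney: Col1a1, Col1a2, Col3a1, Fn1, Tgfb1, Timp1 and Vim. They were taken by a fixed list of Ensembl identifiers, and all 7 were found among the 28787 gene models of the deposited tables. The tables carry identifiers only, and no name could be looked up for them (0 of 26689 matched), so the gene names are those of the list and were not checked against a second source. Kidneys came from male rats of 7 weeks that had been moved at 6 weeks of age to food with 2% salt and kept on it for 1 week, in both groups. The controls (3 libraries) were Dahl Salt Sensitive (Dahl SS) rats, inbred animals that become hypertensive on salty food, and the other 3 libraries came from Resp18 mutant rats. Resp18 codes for a secretory-pathway protein made by neuroendocrine cells. The sources used here give neither the kind of mutation nor the background of the mutant line, so the mutation and other variation between the groups cannot be told apart. Nor do the labels say whether each library is a separate animal, so the tests measure only the spread between these libraries. Every library shares the salt food, and its effect was not measured.

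Fibrosis is the build-up of extracellular matrix between the tubules and in the glomeruli of the kidney, and it accompanies salt-sensitive hypertension. Interstitial fibroblasts and pericytes lay down fibrillar collagen of type I, in which the Col1a1 and Col1a2 chains join in a triple helix, and of type III, built from the Col3a1 chain alone. Fibronectin (Fn1) is the adhesive glycoprotein that binds cells to collagen, transforming growth factor beta 1 (Tgfb1) is the ligand that drives the transcription of matrix genes, Timp1 inhibits the metalloproteinases that degrade matrix, and vimentin (Vim) is the intermediate filament of mesenchymal cells. The comparison asks how far these transcripts differ between kidneys of the groups on the same food.

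All 7 transcripts had higher group means in mutant than in Dahl SS kidneys, by 1.14-fold (Fn1) to 1.39-fold (Col1a1), and 0 of 7 passed edgeR's quasi-likelihood test at an adjusted p (Benjamini-Hochberg over 16324 tested models) under 0.05. Over all tested models 0.0123% passed, and 50.9% had a fold change above 0. At an unadjusted p under 0.05 the same test gave 5 of 7 as higher in mutants (Col1a1, Col3a1, Fn1, Tgfb1 and Vim), where 5.67% of all tested models did so. That count was 2 (Col1a1 and Col3a1) with Dahl SS replicate 1, mutant replicate 1 or mutant replicate 3 left out, or with the replicate number as a block. It was 3 with Dahl SS replicate 3 left out (Col1a1, Col3a1 and Tgfb1) and 3 in DESeq2 (Col1a1, Col3a1 and Vim). The share of all tested models at that p was not counted in these settings. Whether the lower counts concern the members or the whole fit is therefore not known. The mutant libraries lay above every Dahl SS library in 4 of 7 (Col1a1, Col3a1, Fn1 and Vim), where 8.69% of all tested models did so. The transcripts are measured in the same 6 libraries and are not independent of each other. They were also chosen with earlier results of these data known, so these counts are a description and not a test of the list. With DESeq2, 1 of 7 passed (Col3a1), against 0.326% of the models it tested that passed as higher in mutants, and limma-voom and limma on log2 FPKM passed 0 of 7. By exact two-sided permutation tests of single genes, p was 0.1 for each of Col1a1, Col3a1, Fn1 and Vim, the smallest that 3 against 3 libraries allow, and 0.2 for Tgfb1, 0.5 for Col1a2 and 0.6 for Timp1. A p of 0.1 here restates the lack of overlap given above and adds nothing to it. Of all 16324 tested models, 1418 did not overlap with mutants higher and 1382 with mutants lower. The median log2 fold change of the 7 was 0.28, beside 0.01 over all tested models.

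Total counts per library ranged from 13427302 to 22854561, which gave the 7 transcripts between 57 and 14363 reads in a library. A feature of the libraries touches these values. Dahl SS replicate 1 had relatively more reads in long models and mutant replicate 1 in short ones, with rank correlations of 0.37 and -0.37 between a library's deviation and model length, while the other 4 libraries ranged from -0.17 to 0.04. The median tested model had 2008 bases. Fold changes are therefore also given with a fitted length trend removed from each library and without these 2 libraries. The groups of Col1a1 and Fn1 overlapped once the trend was removed, and those of Col3a1 and Vim did not. Values for this were log2 CPM (counts scaled to the effective library size) less the trend, centred on each gene's mean. Dahl SS replicate 2 stood above mutant replicate 2 for Col1a1 (-0.021 against -0.076) and for Fn1 (0.076 against 0.021). The share of all tested models without overlap was counted only with the trend left in. The lack of overlap of Col3a1 and Vim after its removal therefore has no such share beside it. The kidney's own cell type markers and the wider matrix gene lists were not analysed here, since they are known by name only. In whole kidney, more cells of a type and more RNA per cell cannot be told apart.

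**Figure D1:**
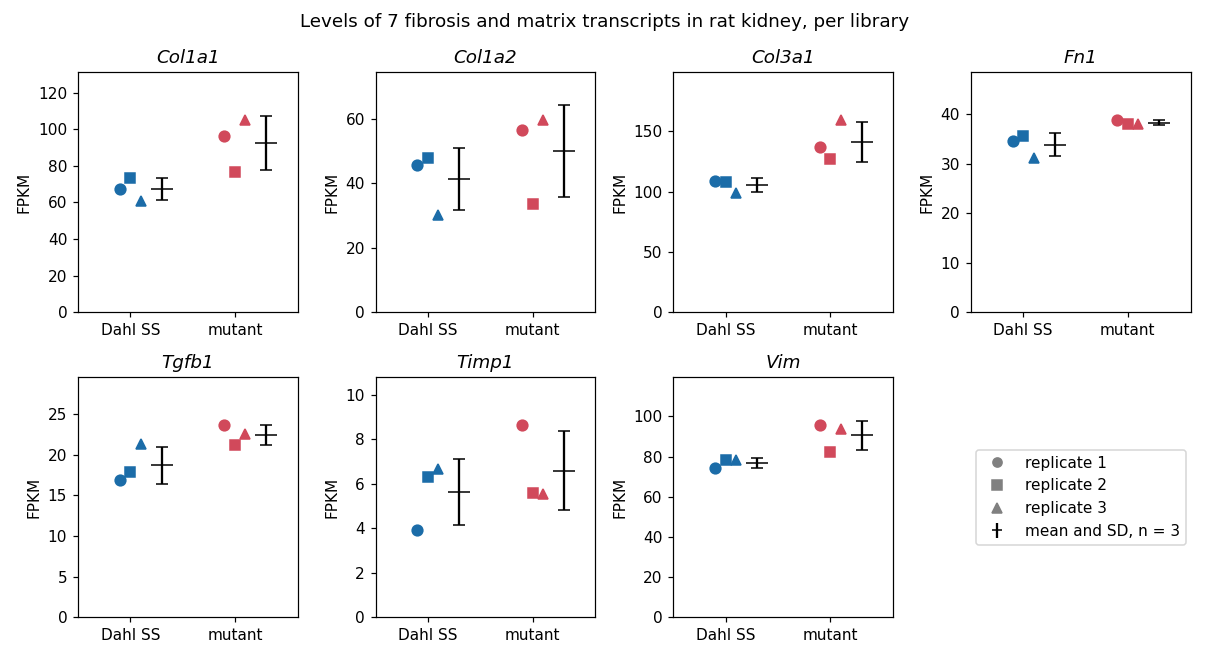
FPKM (reads per kilobase of model and scaled to the library total) of each transcript in the 3 Dahl SS and 3 Resp18 mutant libraries, with the mean and SD of each group (n = 3) and marker shapes for the replicate. The mutant libraries lie above all Dahl SS libraries for Col1a1, Col3a1, Fn1 and Vim, and overlap them for Col1a2, Tgfb1 and Timp1.

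Per length, on the deposited FPKM scale, the level of Col3a1 was the highest of the 7 in 6 of 6 libraries and that of Timp1 the lowest in 6 of 6. Their means over the 6 libraries were 123 FPKM for Col3a1, 83.7 for Vim, 79.9 for Col1a1, 45.7 for Col1a2, 36.03 for Fn1, 20.6 for Tgfb1 and 6.12 for Timp1. Neighbours in this order were not all separate. Vim stood above Col1a1 in 4 of 6 libraries, among them all 3 of Dahl SS, and below it in mutant replicates 1 and 3. Col1a2 stood above Fn1 in 4 of 6 libraries and below it in Dahl SS replicate 3 and mutant replicate 2. Each other neighbouring pair kept its order in 6 of 6. Col3a1 lay above 97.1% and Col1a1 above 95.01% of the 21608 models with a read in any library, and Timp1 above 55.9%.

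Col1a1 (ENSRNOG00000003897, 5825 bases) is the major chain of type I collagen. Its level was 67.4, 73.5 and 61.0 FPKM in Dahl SS replicates 1 to 3 and 96.2, 76.4 and 105 FPKM in mutant replicates 1 to 3. All mutant libraries stood above all Dahl SS libraries, with mutant replicate 2 close to Dahl SS replicate 2. The group means were 67.3 ± 6.24 and 92.5 ± 14.7 FPKM (SD, n = 3). The fold change was 1.39 (95% interval 1.14 to 1.69; log2 0.47 ± 0.13 SE), and it did not pass edgeR's test (unadjusted p = 0.00493, adjusted p = 0.320) or DESeq2 (adjusted p = 0.0605).

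Col3a1 (ENSRNOG00000003357, 4765 bases) forms type III collagen, which is laid down beside type I in the kidney interstitium. It measured 109, 108 and 99.0 FPKM in Dahl SS replicates 1 to 3, and 137, 127 and 159 FPKM in mutant replicates 1 to 3. The groups did not overlap, and the gap from the highest Dahl SS to the lowest mutant library was wider than the whole Dahl SS range. The means were 105 ± 5.55 and 141 ± 16.6 FPKM (SD, n = 3), a fold change of 1.35 (95% interval 1.16 to 1.57; log2 0.43 ± 0.10 SE). Its unadjusted edgeR p of 0.00147 was the 86th lowest of 16324 models and the lowest of the 7 transcripts. Its adjusted p was 0.276 in edgeR and 0.0197 in DESeq2 (log2 0.43 ± 0.11 SE), and it ranged from 0.0197 to 0.825 over 21 alternatives. The call is therefore made by DESeq2 only, among the tools run.

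Col1a2 (ENSRNOG00000011292, 4464 bases), the partner chain of Col1a1, was low against it in 2 libraries and high against it in others. As log2 CPM minus the gene's mean, Col1a2 was -0.56 in Dahl SS replicate 3 and -0.39 in mutant replicate 2. Col1a1 was -0.37 and -0.04 there. In Dahl SS replicates 1 and 2, Col1a2 was 0.02 and 0.12, where Col1a1 was -0.25 and -0.08. Its level was 45.9, 47.8 and 30.2 FPKM in Dahl SS replicates 1 to 3 and 56.7, 33.8 and 59.8 FPKM in mutant replicates 1 to 3. Dahl SS replicate 3 and mutant replicate 2 were low and the groups overlapped, since mutant replicate 2 stood below Dahl SS replicates 1 and 2. The means were 41.3 ± 9.63 and 50.1 ± 14.2 FPKM (SD, n = 3). The fold change of 1.22 had a 95% interval from 0.851 to 1.75 (log2 0.29 ± 0.23 SE, edgeR adjusted p = 0.632). The coefficient of variation within the groups was 23.3% and 28.4%. With the length trend removed the log2 fold change was 0.36 ± 0.24 SE (adjusted p = 0.550), and without both end libraries it was 0.23 ± 0.25 SE (adjusted p = 0.857). Leaving out Dahl SS replicate 3 lowered the log2 fold change to 0.11, and leaving out mutant replicate 2 gave 0.52. Leaving out mutant replicate 1 gave 0.17 and leaving out mutant replicate 3 gave 0.16.

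The ratio between the type I chains showed the same libraries. On FPKM, Col1a1 over Col1a2 was 1.47, 1.54 and 2.02 in Dahl SS replicates 1 to 3 and 1.70, 2.26 and 1.76 in mutant replicates 1 to 3. The highest ratio in each group was that of the library with the lowest Col1a2. The ratio of Col1a1 over Col3a1 was much steadier, from 0.602 to 0.701 over the 6 libraries, with a Dahl SS mean of 0.638 ± 0.0356 and a mutant mean of 0.654 ± 0.0498 (SD, n = 3). The means of Col1a1 over Col1a2 were 1.67 ± 0.299 and 1.91 ± 0.310 (SD, n = 3), and their difference of 0.231 was smaller than either SD. That difference was 0.0529 with mutant replicate 2 left out and 0.402 with Dahl SS replicate 3 left out. Within groups, the pooled SD of log2 CPM (counts scaled to the effective library size) was 0.42 for Col1a2, larger than in 88.2% of tested models, beside 0.20 for Col1a1 and 0.12 for Col3a1. The cause of the low Col1a2 values was not tested.

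**Figure D2:**
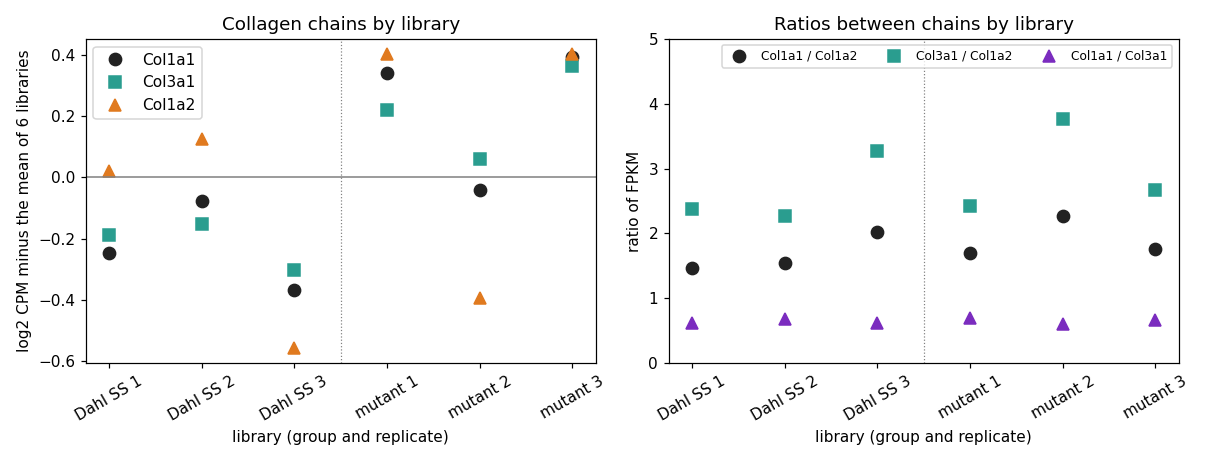
Left, log2 CPM of Col1a1, Col3a1 and Col1a2 in each library, minus that gene's mean over the 6 libraries; right, ratios of FPKM between the chains in each library. Col1a2 lies below the other chains in Dahl SS replicate 3 and mutant replicate 2, and above them in the remaining libraries. The ratios of Col1a1 and Col3a1 over Col1a2 are highest in Dahl SS replicate 3 and mutant replicate 2, while Col1a1 over Col3a1 stays between 0.602 and 0.701.

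Together the 3 collagen chains took 0.112%, 0.116% and 0.0962% of counted reads in Dahl SS replicates 1 to 3, and 0.147%, 0.120% and 0.164% in mutant replicates 1 to 3. The lowest mutant share, in replicate 2, was close to the highest Dahl SS share, in replicate 2 of that group. The means were 0.108% ± 0.0103 and 0.144% ± 0.0221 (SD, n = 3). By likeness to Col1a1 in pattern, measured as the root mean square difference of centred log2 CPM over the 6 libraries, Col3a1 ranked 11th of 6500 models with a mean log2 CPM over 2 that varied at least 0.5 times as much as Col1a1. The nearest were ENSRNOG00000018509 (difference 0.05) and ENSRNOG00000009980 (difference 0.05), for which the sources used here give no name. Vim ranked 279th, Col1a2 910th, Tgfb1 942nd and Timp1 3438th, and Fn1 varied too little to enter.

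The RefSeq promoter table (GRCr8, another build than that of the counts) held 4 of the 7 genes: Col1a2, Tgfb1, Timp1 and Vim. Col1a2 and Vim are shown because both hold a TATA box. Each stretch starts 250 bases before the annotated start and ends 10 bases after the TATA box, 5′ to 3′, with the CCAAT box (CCAAT on either strand, here ATTGG) and the TATA box (TATAAA, forward strand) in capitals. Col1a2 is read from the plus strand at chr4:33518307-33518402 and Vim from the plus strand at chr17:81577011-81577194.
Col1a2: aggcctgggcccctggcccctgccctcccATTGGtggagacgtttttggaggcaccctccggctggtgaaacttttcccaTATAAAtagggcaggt
Vim: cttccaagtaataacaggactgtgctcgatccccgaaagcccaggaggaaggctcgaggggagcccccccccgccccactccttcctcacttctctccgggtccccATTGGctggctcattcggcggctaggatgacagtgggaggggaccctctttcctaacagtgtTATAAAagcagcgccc
The CCAAT box begins at -221 and the TATA box at -170 from the annotated start in Col1a2, and at -144 and -82 in Vim. Over 33469 promoters searched for the same 250 bases, 34.0% held CCAAT and 8.06% held TATAAA, and neither was found in this window of Tgfb1 or Timp1. The SMAD box CAGAC (either strand), the letters bound by transducers of TGF-beta signals, was found at 2 places in the Col1a2 window and at 0 in those of Tgfb1, Timp1 and Vim, and 42.9% of all promoters held it. These matches describe the letters only, and the data hold no measure of binding at them. The SMAD box matches of Col1a2 lie between its TATA box and the annotated start, not before the TATA box. Whether transcription begins at the annotated starts was not tested.

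Fn1 (ENSRNOG00000014288, 8159 bases) was the steadiest of the 7 within groups as long as the length trend was left in (pooled SD of log2 CPM 0.09). Its level was 34.5, 35.7 and 31.2 FPKM in Dahl SS replicates 1 to 3 and 38.8, 37.9 and 38.01 FPKM in mutant replicates 1 to 3. The groups did not overlap, and the 3 mutant libraries lay within 1 FPKM of each other. The means were 33.8 ± 2.32 and 38.2 ± 0.501 FPKM (SD, n = 3), a fold change of 1.14 (95% interval 1.00 to 1.30; log2 0.19 ± 0.08 SE, edgeR unadjusted p = 0.0471, adjusted p = 0.459). Fn1 is the longest of the 7 models, and the fitted length trend for it was 0.23 (log2) in Dahl SS replicate 1 and -0.22 in mutant replicate 1. With the trend removed its log2 fold change was 0.31 ± 0.12 SE (adjusted p = 0.353), and without both libraries it was 0.16 ± 0.08 SE (adjusted p = 0.627). Trend removal also spread the Fn1 libraries, and its groups then overlapped. Centred log2 CPM of Fn1 then ran from -0.31 to 0.076 in Dahl SS and from 0.021 to 0.38 in mutants. That of Vim ran from -0.16 to -0.085 and from -0.0062 to 0.20, so Fn1 was no longer the steadiest.

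Tgfb1 (ENSRNOG00000020652, 1456 bases), the ligand of the group, had a narrow overlap. Its level was 16.9, 17.9 and 21.3 FPKM in Dahl SS replicates 1 to 3 and 23.6, 21.2 and 22.6 FPKM in mutant replicates 1 to 3. Only Dahl SS replicate 3 reached the mutant range, just above mutant replicate 2. The means were 18.7 ± 2.29 and 22.4 ± 1.23 FPKM (SD, n = 3), with a fold change of 1.21 (95% interval 1.01 to 1.46; log2 0.28 ± 0.12 SE, edgeR unadjusted p = 0.0399, adjusted p = 0.449). With the length trend removed the log2 fold change was 0.23 ± 0.10 SE (adjusted p = 0.380). Leaving out both end libraries of that trend gave 0.14 ± 0.11 SE (adjusted p = 0.794).

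Vim (ENSRNOG00000018087, 1830 bases) measured 74.0, 78.3 and 78.5 FPKM in Dahl SS replicates 1 to 3 and 95.6, 82.4 and 93.6 FPKM in mutant replicates 1 to 3. The groups did not overlap, and mutant replicate 2 was again the mutant library nearest to the controls. The means were 77.0 ± 2.51 and 90.5 ± 7.08 FPKM (SD, n = 3), a fold change of 1.19 (95% interval 1.03 to 1.37; log2 0.25 ± 0.09 SE, edgeR unadjusted p = 0.0219, adjusted p = 0.400). Its log2 fold change was 0.22 ± 0.07 SE with the length trend removed (adjusted p = 0.256). Leaving out both end libraries gave 0.15 ± 0.08 SE (adjusted p = 0.645).

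Timp1 (ENSRNOG00000010208, 765 bases), the inhibitor of matrix metalloproteinases, was the least abundant, with 69, 70 and 83 reads in Dahl SS replicates 1 to 3 and 145, 89 and 57 in mutant replicates 1 to 3. Its level was 3.95, 6.31 and 6.68 FPKM in Dahl SS and 8.63, 5.58 and 5.55 FPKM in mutants, in the same order. Mutant replicate 1 stood above every Dahl SS library, and the other mutant libraries stood below Dahl SS replicates 2 and 3. The means were 5.64 ± 1.48 and 6.59 ± 1.77 FPKM (SD, n = 3), and the fold change of 1.20 had a 95% interval from 0.771 to 1.86 (log2 0.26 ± 0.28 SE, edgeR adjusted p = 0.723). Counting error alone was 8.30% to 13.2% of a library's value. The lowest and highest libraries, Dahl SS replicate 1 and mutant replicate 1, are also the end libraries of the length trend, which was -0.21 and 0.19 (log2) in them for a model of this length. The log2 fold change was 0.13 with the trend removed. Leaving out Dahl SS replicate 1 gave 0.036 ± 0.27 SE, and leaving out mutant replicate 1 gave -0.012 ± 0.28 SE. Leaving out both gave -0.24 ± 0.23 SE (adjusted p = 0.834). Each single omission left a value far smaller than its SE, so the Timp1 difference rests on both end libraries.

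**Figure D3:**
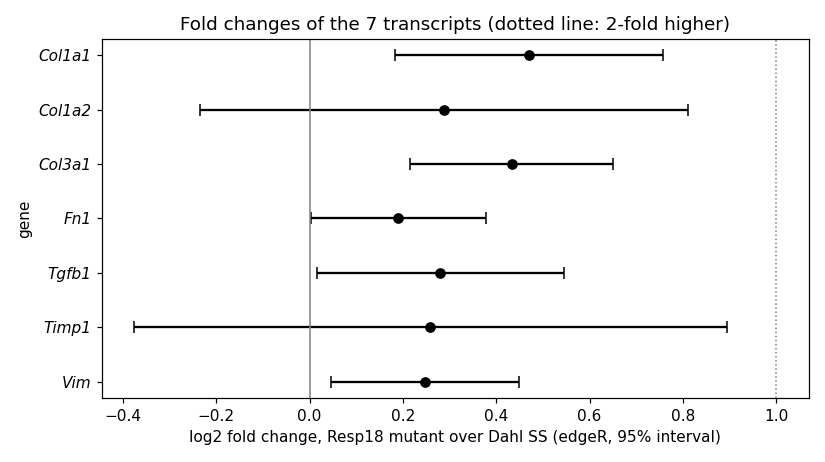
Log2 fold change of each transcript, Resp18 mutant over Dahl SS, from edgeR on counts (points) with its 95% interval (bars); the solid line marks no difference and the dotted line a 2-fold higher level. The intervals of Col1a2 and Timp1 include 0, and all 7 end below 2-fold, the highest at 1.86-fold for Timp1.

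The sizes of the differences were bounded only within the fit that leaves the length trend in. Its 95% intervals, each taken alone and not adjusted for 16324 tests, ended at 1.30-fold for Fn1, 1.37 for Vim, 1.46 for Tgfb1, 1.57 for Col3a1, 1.69 for Col1a1, 1.75 for Col1a2 and 1.86 for Timp1. Removing the trend raised the log2 fold changes of Col1a1, Col1a2, Col3a1 and Fn1 and lowered those of Tgfb1, Timp1 and Vim. Intervals for that fit are not given here, so these limits do not hold for it. For Col1a1, a long model, the fitted trend was 0.17 (log2) in Dahl SS replicate 1 and -0.16 in mutant replicate 1, opposite in sign to the difference between the groups. With the trend removed the log2 fold change was 0.56 ± 0.15 SE for Col1a1 (adjusted p = 0.211) and 0.50 ± 0.10 SE for Col3a1 (adjusted p = 0.151). Without both end libraries these were 0.41 ± 0.14 SE (adjusted p = 0.415) and 0.45 ± 0.10 SE (adjusted p = 0.229). Neither passed edgeR's test in these settings, in which 0.0184% and 0.136% of all tested models passed. In 21 alternatives the fold change stayed above 0 in all 21 for each of Col1a1, Col1a2, Col3a1, Fn1, Tgfb1 and Vim, and in 19 for Timp1.

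**Figure D4:**
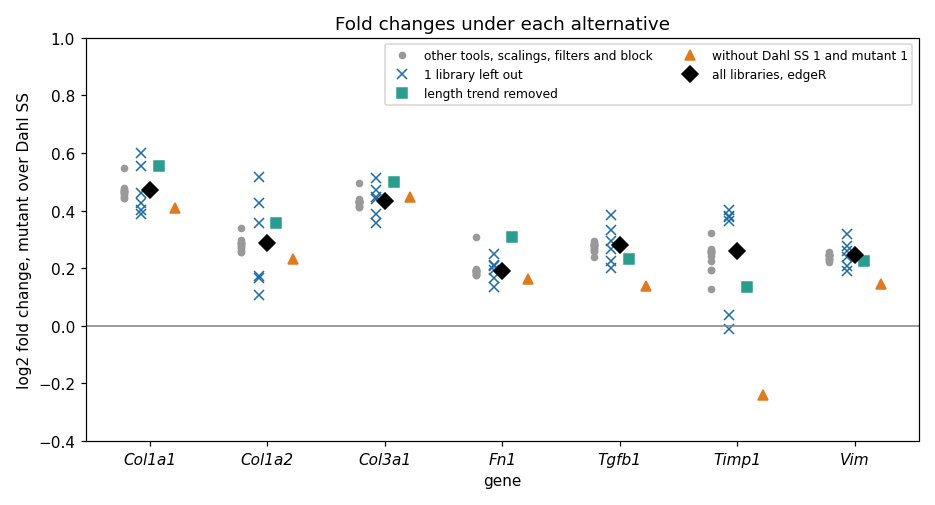
Log2 fold change of each transcript, mutant over Dahl SS, with all libraries in edgeR (black diamonds) and under each alternative; the grey points include the length trend removed together with the replicate block. Col1a1 and Col3a1 stay at or above 0.36, and Timp1 reaches -0.24 without Dahl SS replicate 1 and mutant replicate 1.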

How the data were processed

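RNA of 6 kidney libraries, prepared from 3 ug of total RNA each (NEBNext Ultra kit, per the labels' protocols), was analysed from whole-number read counts per gene model that the authors deposited. The authors also deposited FPKM values, which equal count over library total and a whole-number model length (117134 of 117134 nonzero values, within 0.001 bases). HISAT2 2.1.0, HTSeq 0.6.1, CASAVA 1.8 and the build Rnor 5.0 are listed, without roles, in the submitters' processing notes. The handling of strand and of multi-mapped reads is not stated there, so reads of overlapping or antisense models cannot be told apart.

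Counts were tested with edgeR 4.0.16 in R 4.3.3: filterByExpr defaults (minimum count 10, minimum total 15) kept 16324 models, all 7 members among them, then TMM factors and the quasi-likelihood F test with group as the sole term. P-values were adjusted by Benjamini-Hochberg over all tested models, at a threshold of 0.05. The SE is the log2 fold change over the square root of F. Alternatives were DESeq2 1.42.0 on all models with a read, limma 3.58.1 (voom, and log2(FPKM + 1) or log2(FPKM + 0.1)), other scalings and filters, thresholds, a replicate block, libraries left out, and removal of a loess length trend (span 0.5, log2 CPM with prior count 2) through offsets. The tests were tried on simulated counts, in which every group difference given was larger than those of the 7 members. These trials therefore do not bear on differences as small as theirs, and no result here rests on them. For each member, the group means of log2 CPM were also compared by an exact permutation test (scipy 1.17.1).

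The members, lists and alternatives were chosen with earlier results of these data known. Named were the 7 members and the 2 models nearest to Col1a1 in pattern. Matrix and cell type lists fixed by symbol were not analysed here.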

Additional observations from a re-analysis of the deposited data

How the results depend on the processing

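Of 7 transcripts, 0 passed under edgeR with robust estimation, 3 other scalings, 2 other filters, the length trend removed, an FDR of 0.10, or any 1 library left out (0 to 0), and under limma. DESeq2 passed 1 (Col3a1). An unadjusted p of 0.05 gave 5 (2 to 5 with 1 library left out, 2 with the block, 2 without both end libraries, with no share of all models counted in these settings). The count over all models was 2 in edgeR with all libraries, 104 with DESeq2, 1 with limma-voom, 1 in each of the 3 limma fits on FPKM, 22 without Dahl SS replicate 1 and mutant replicate 1, and 1767 at an unadjusted p of 0.05. With 1 library left out it ranged from 1 (without Dahl SS replicate 2) to 13 (without Dahl SS replicate 1), and was 6 without mutant replicate 3. The cause was not tested. Deviations of same-numbered libraries were correlated at -0.274, -0.144 and -0.00176, and the numbers were not used as pairs. The replicate block in edgeR gave 2 models and 0 of the 7, with an adjusted p of 0.825 for Col1a1 and Col3a1. Timp1 alone changed direction: its log2 fold change with 1 library left out ran from -0.012 (mutant replicate 1) to 0.40 (Dahl SS replicate 3), and was -0.24 without both end libraries. Levels per length on TMM-scaled libraries moved by less than 1 SD. With 1 library left out, the mutant minus Dahl SS difference in ratio ran from 0.0529 (mutant replicate 2) to 0.402 (Dahl SS replicate 3) for Col1a1 over Col1a2, from -0.0918 to 0.631 (the same libraries) for Col3a1 over Col1a2, where all libraries gave 0.313, and from -0.00796 (mutant replicate 1) to 0.0417 (mutant replicate 2) for Col1a1 over Col3a1, where all libraries gave 0.0155. Both Col3a1 over Col1a2 and Col1a1 over Col3a1 changed sign. Depth limits Timp1 most, at 57 to 145 reads. The median log2 fold change of all models was -0.01 to 0.01 under the 4 scalings.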
